A study of Mus musculus with 16 samples.

Results

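The collagen genes are the genes of the mouse array whose annotation gives a single gene symbol of the collagen form (Col, a type number, the letter a and a chain number). The array has 44 of them among 22180 genes with a single symbol, each represented by 1 transcript row. They comprise 11 fibrillar collagens, 6 type IV collagens of basement membranes, the multiplexins Col15a1 and Col18a1, 6 type VI collagens and 9 FACIT collagens, which are fibril-associated. The other members are 3 network collagens of types VIII and X, 4 transmembrane collagens, and Col7a1, Col26a1 and Col28a1. Tests were run on 30 of the 44, those whose value was above the median of the whole array on 4 or more of the 16 arrays. The other 14 stayed low, between 3.62 and 5.50 on the log2 scale, where array medians lay between 4.90 and 4.97. These were Col4a3, Col4a4, Col4a6, Col6a4, Col6a5, Col8a2, Col10a1, Col11a1, Col12a1, Col17a1, Col19a1, Col22a1, Col24a1 and Col28a1, and the value of 5.50 was Col12a1 in the tumour of MYC mouse 2.

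RNA was measured in tumour and non-tumour liver from each of 8 transgenic mice, all on the C57BL/6J background and killed at 18 months of age. MYC mice (labelled MYC+/+, REG3A-/-) expressed the c-MYC oncogene in liver from control sequences of woodchuck hepatitis virus, and MYC/REG3A mice (labelled MYC+/+, REG3A+/+) also carried a transgene for the secreted lectin REG3A. With 4 mice per genotype there were 16 arrays in 4 groups of 4; every group carries MYC, and the promoter of the REG3A transgene is not given in the sources used here. Tumour and liver pieces were taken in pairs, so tumour and non-tumour liver were compared within mice. Hepatocyte markers were high in every array, at a mean log2 level of 12.09 to 12.44 over the 9 genes tested. Along the first principal component, MYC/REG3A tumours 2 and 4 were at -4.21 and 2.55, between the other 6 tumours (32.7 to 42.3) and non-tumour liver (-31 to -26.4).

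Collagens are triple helices of 3 chains, secreted into the extracellular matrix. Fibrillar collagens such as types I and III form the fibres that accumulate in liver fibrosis, type IV forms the sheet of the basement membrane, type VI forms beaded filaments, and FACIT collagens sit on the surface of fibrils. In liver, stellate cells and portal fibroblasts are the known main sources of fibrillar collagen, while endothelial cells also make type IV chains. In bulk tissue, fewer cells of a type and less RNA per cell cannot be told apart.

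Col4a1 and Col4a2, the pair with the largest increases in tumours, are encoded head to head. In RefSeq (build GRCm38.p6) the Col4a2 transcript starts at position 11312805 of chromosome 8 on the plus strand and the Col4a1 transcript at position 11312826 on the minus strand. The stretch is shown because both start sites lie within it: capitals mark the 22 bases from one start to the other, both included, in which the transcripts overlap in opposite directions.
Col4a2 and Col4a1 starts, chr8:11312801-11312830, plus strand: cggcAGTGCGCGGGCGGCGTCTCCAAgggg

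The 100 bases before the start are given for the members that were lower in MYC tumours and have a RefSeq window, since these 4 share that behaviour; Col14a1 is named only. Capitals mark the GC box letters GGGCGG.
Col6a3, chr1:90843972-90844071, minus strand: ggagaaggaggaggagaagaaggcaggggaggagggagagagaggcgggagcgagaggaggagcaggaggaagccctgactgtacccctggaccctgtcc
Col13a1, chr10:61979109-61979208, minus strand: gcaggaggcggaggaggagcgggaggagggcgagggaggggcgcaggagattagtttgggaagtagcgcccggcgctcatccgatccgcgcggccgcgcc
Col27a1, chr4:63215312-63215411, plus strand: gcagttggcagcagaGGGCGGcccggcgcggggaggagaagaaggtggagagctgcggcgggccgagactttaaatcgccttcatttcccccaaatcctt
Col20a1, chr2:180986435-180986534, plus strand: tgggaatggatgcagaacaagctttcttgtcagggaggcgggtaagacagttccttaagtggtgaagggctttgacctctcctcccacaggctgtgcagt
The letters GGGCGG occurred in the Col27a1 stretch and in none of the other 3 stretches.

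Promoter windows from 250 bases before to 50 bases after the start were available for 35 of the 44 collagens. Both strands were searched for short motifs. The E-box CACGTG, the letters bound by MYC with its partner MAX, was in 0 of 35 collagen windows and in 8.09% of the 27025 gene windows. GGGCGG was in 22 of 35 (38.2% of all windows), CCAAT in 13 of 35 (41.1%) and TATAAA in 5 of 35 (15.7%). The windows of Col4a1 and Col4a2 overlap, so they are not separate examples, and these matches describe letters in a fixed window only.

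The question of the design is how tumour differs from the non-tumour liver of the same mouse, and whether that difference depends on REG3A. In MYC mice, 5 of the 30 tested collagens were lower in tumours and 0 were higher (adjusted p under 0.05, limma with the mouse as a block). They were Col6a3, Col13a1, Col14a1, Col20a1 and Col27a1, which belong to the type VI, transmembrane, FACIT and fibrillar classes. Over all 13555 genes tested, 33.2% were called in this comparison (17.4% higher, 15.8% lower), so the share of collagens called lower was near the background of lower calls. In MYC/REG3A mice, 2 collagens, Col4a1 and Col4a2, were higher in tumours and 0 were lower, where 12.5% of genes were called (7.58% higher, 4.88% lower). The median log2 change of the tested collagens was -0.09 in MYC mice and -0.03 in MYC/REG3A mice, against -0.026 and -0.018 over all genes tested.

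**Figure D1:**
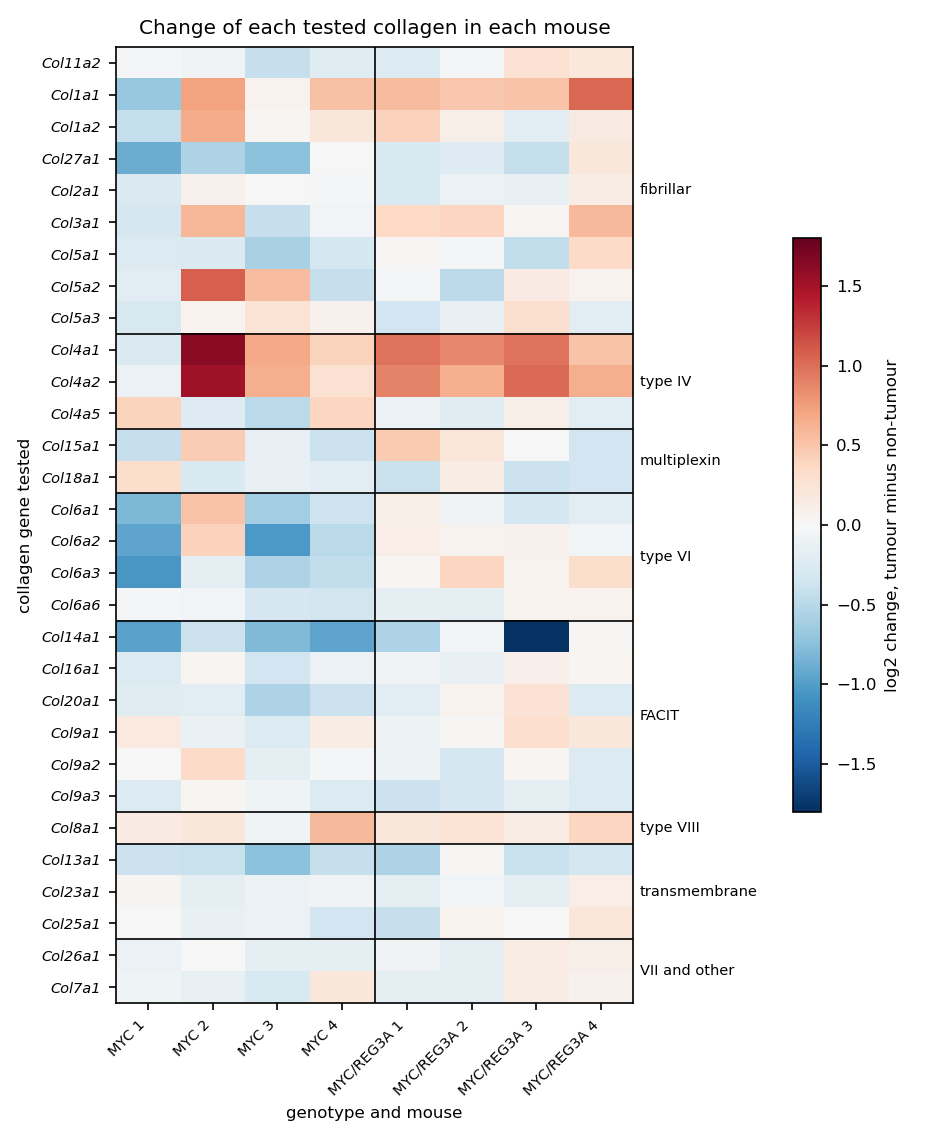
Log2 change from non-tumour liver to tumour in each of the 8 mice (columns) for the 30 tested collagens (rows, grouped by class); red is higher in tumour and blue lower. Col4a1 and Col4a2 are red in 7 of 8 mice, Col13a1 is blue in 7 of 8, and the strongest blue is Col14a1 in MYC/REG3A mouse 3 (-1.78).

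Type IV collagen Col4a1, the alpha 1 chain of the ubiquitous basement membrane heterotrimer, had log2 values of 6.05, 5.65, 5.91 and 6.10 in the non-tumour liver of MYC/REG3A mice 1 to 4. Their tumours had 7.04, 6.52, 6.89 and 6.60. Every tumour was above every non-tumour sample, and the groups did not overlap. The share of all genes whose groups do not overlap was not counted, so this and the later separations are descriptions only. The log2 change was 0.83 (SE 0.24, n = 4 mice, limma adjusted p = 0.0496), a 1.78-fold increase. In MYC mice, Col4a1 had 6.78, 5.89, 6.22 and 6.45 in non-tumour liver and 6.52, 7.51, 6.90 and 6.85 in tumours. These groups overlapped, because mouse 1 had the highest non-tumour value and the lowest tumour value. The change per mouse was -0.26, 1.63, 0.68 and 0.40, with a mean of 0.61 (SE 0.24) that did not pass (limma adjusted p = 0.0756).

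Col4a2, the alpha 2 chain of the same heterotrimer, had 5.76, 5.47, 5.64 and 5.51 in MYC/REG3A non-tumour liver and 6.65, 6.13, 6.66 and 6.16 in the tumours. Again the groups did not overlap. The log2 change was 0.81 (SE 0.216, n = 4, limma adjusted p = 0.039), or 1.75-fold. In MYC mice the non-tumour values were 6.51, 5.77, 5.99 and 6.13 and the tumour values 6.40, 7.29, 6.64 and 6.41. Mouse 1 was again the animal without an increase, at -0.10, against 1.52, 0.65 and 0.28 in the other mice. The mean of 0.59 (SE 0.216) did not pass (limma adjusted p = 0.062).

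The difference between genotypes in the change of this pair was 0.22 for each gene (SE 0.339 for Col4a1 and 0.305 for Col4a2; limma adjusted p = 0.95 and 0.94), so a call in only MYC/REG3A mice does not show a genotype difference. Without MYC mouse 1, the MYC changes were 0.90 for Col4a1 and 0.82 for Col4a2, and both passed (limma adjusted p = 0.0189 and 0.0245). That fit leaves out the 1 MYC mouse without an increase, and MYC mouse 2 had the largest increases (1.63 and 1.52). Over the 18 alternative settings, the MYC change went down to 0.28 for Col4a1 and 0.27 for Col4a2. The limma adjusted p reached 0.284 and 0.217. With all mice kept, both genes passed with no replicate block (limma adjusted p = 0.036 and 0.0368). They also passed with the mouse as a random block (limma adjusted p = 0.0298 and 0.0292). The MYC call thus turns on single mice and on how the pairing is modelled. In MYC/REG3A mice the call was lost for both genes whenever any of the 4 mice of that genotype, or MYC mouse 3 or 4, was left out, with log2 changes of 0.73 to 0.94 and limma adjusted p of 0.0516 to 0.175. Leaving out MYC/REG3A mice 2 and 4 together, whose tumours lay apart on the first principal component, also ended both calls, with changes of 0.98 for Col4a1 and 0.96 for Col4a2 (limma adjusted p = 0.138 and 0.116). The changes stayed positive in all of these fits.

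**Figure D2:**
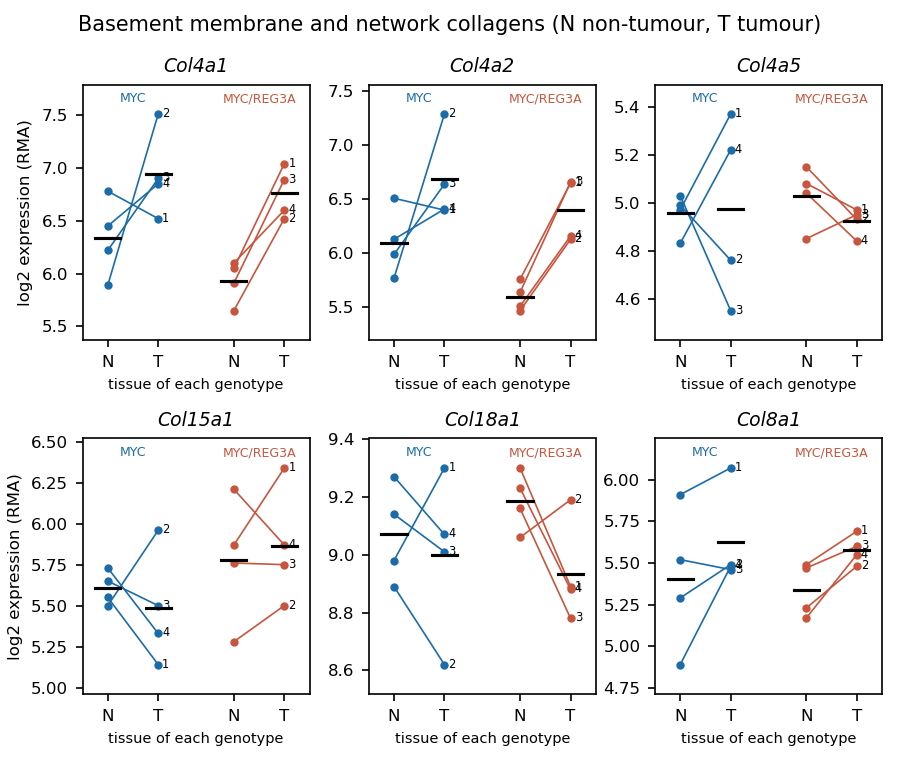
Log2 expression of basement membrane and network collagens in non-tumour liver (N) and tumour (T), with a line for each mouse (number at the tumour point) and black bars for group means of 4 mice. Col4a1 and Col4a2 rise along all 4 MYC/REG3A lines and along 3 of 4 MYC lines, while the lines of Col15a1 and Col18a1 run in both directions.

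The other basement membrane collagens did not follow the pair. Col4a5, a chain of a type IV network found in kidney and other tissues, changed by 0.02 in MYC and -0.11 in MYC/REG3A mice and was called in neither. Col4a3, Col4a4 and Col4a6 were among the 14 low genes. Col18a1, whose C-terminal fragment is endostatin and which hepatocytes are known to make, had non-tumour means of 9.07 ± 0.168 and 9.19 ± 0.0993 (SD, n = 4) in MYC and MYC/REG3A mice and tumour means of 9.0 ± 0.282 and 8.94 ± 0.176. Its changes were -0.07 and -0.25 (limma adjusted p = 0.714 and 0.232). Col15a1, the related multiplexin of vascular basement membranes, changed by -0.12 and 0.08, and its values ranged from 5.14 to 6.34 over the 16 arrays.

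Col8a1, a network collagen of vessel walls, had 5.91, 5.29, 5.52 and 4.89 in MYC non-tumour liver and 6.07, 5.49, 5.46 and 5.48 in the tumours. Its MYC/REG3A values were 5.49, 5.23, 5.47 and 5.17 in non-tumour liver and 5.69, 5.48, 5.60 and 5.55 in tumours. The groups overlapped in both genotypes, and the tumour was higher in 7 of 8 mice, MYC mouse 3 being the exception. The mean changes were 0.22 and 0.24 (SE 0.115, limma adjusted p = 0.169 and 0.198).

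Fibrillar collagens of types I and III did not pass in either genotype. Col1a1, the alpha 1 chain of type I collagen, had 6.63, 6.41, 6.06 and 6.14 in MYC/REG3A non-tumour liver and 7.20, 6.90, 6.57 and 7.17 in their tumours. It was higher in the tumour of each of these 4 mice, by 0.57, 0.49, 0.51 and 1.03, though the groups overlapped at 6.57 and 6.63. The mean change was 0.65 (SE 0.204, limma adjusted p = 0.063). It passed in 3 of the 18 alternative settings. These were without MYC mouse 1 or MYC mouse 2 (log2 change 0.65, limma adjusted p = 0.0234 and 0.0481) and with array weights (0.69, 0.0415). Leaving out a MYC mouse changes the pooled spread and not the 4 mice measured here. Over all settings the change lay between 0.52 and 0.70, with a limma adjusted p of up to 0.302. In MYC mice, Col1a1 had 7.80, 6.55, 7.11 and 6.35 in non-tumour liver and 7.12, 7.26, 7.18 and 6.88 in tumours. The non-tumour samples spread over the whole range of the tumours and beyond (SD 0.651 against 0.165). The change was -0.68 in mouse 1 and 0.72, 0.07 and 0.53 in mice 2 to 4, with a mean of 0.16 (SE 0.204, limma adjusted p = 0.589).

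Col1a2, the partner chain of Col1a1 in type I collagen, changed by 0.12 in both genotypes (SE 0.166, limma adjusted p = 0.614 and 0.669). Col3a1, the chain of type III collagen, changed by -0.04 in MYC mice and by 0.34 in MYC/REG3A mice (SE 0.163, limma adjusted p = 0.868 and 0.198). The MYC/REG3A changes of Col3a1 were 0.36, 0.38, 0.03 and 0.58, all of them positive. Both genes showed the pattern of Col1a1 in MYC non-tumour liver, where mouse 1 had the highest value of the group (7.41 for Col1a2 and 7.44 for Col3a1).

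Type V collagen regulates the thickness of type I fibrils. Col5a1, its alpha 1 chain, had 7.05, 6.77, 7.02 and 6.74 in MYC non-tumour liver and 6.81, 6.50, 6.43 and 6.43 in the tumours. All 4 mice were lower in the tumour, but the mean of -0.35 (SE 0.13) did not pass (limma adjusted p = 0.0617). It passed in 5 of the 18 alternative settings, for example without MYC/REG3A mouse 3 (-0.35, limma adjusted p = 0.0388). Over all settings the change lay between -0.41 and -0.20, with a limma adjusted p of up to 0.204. Its change in MYC/REG3A mice was -0.03. Col5a2 ran in both directions in MYC mice, with changes of -0.19, 1.08, 0.56 and -0.41 (mean 0.26, limma adjusted p = 0.398), and changed by -0.07 in MYC/REG3A mice. Col5a3, Col2a1 and Col11a2 changed by between -0.19 and 0.05 in the 2 genotypes and were called in neither.

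Col27a1, a fibrillar collagen of cartilage and other tissues, was the fibrillar member that fell in MYC tumours. Its MYC values were 7.42, 7.08, 7.17 and 6.68 in non-tumour liver and 6.52, 6.52, 6.43 and 6.70 in tumours. Mice 1 to 3 dropped by 0.90, 0.56 and 0.74, mouse 4 did not (0.01), and the groups overlapped through that mouse. The mean change was -0.54 (SE 0.157, n = 4, limma adjusted p = 0.025). The call was lost without MYC mouse 1, 2 or 3 (log2 change -0.43, -0.54 and -0.48, limma adjusted p = 0.107, 0.0607 and 0.0881). The MYC/REG3A values were 6.78, 6.89, 7.36 and 6.79 in non-tumour liver and 6.50, 6.66, 6.93 and 7.0 in tumours, a mean change of -0.18 that did not pass (limma adjusted p = 0.478).

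**Figure D3:**
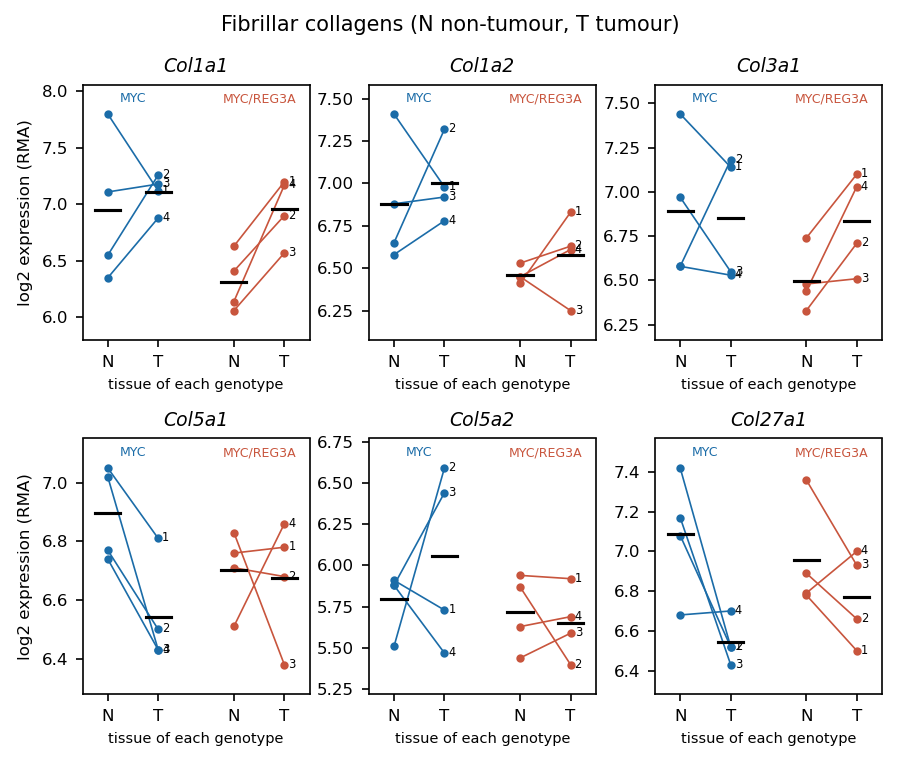
Log2 expression of 6 fibrillar collagens in non-tumour liver (N) and tumour (T), with a line for each mouse and black bars for group means of 4 mice. Col1a1 goes up in all 4 MYC/REG3A mice, and in the MYC panel mouse 1 starts from the highest non-tumour value for Col1a1, Col1a2, Col3a1, Col5a1 and Col27a1.

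Type VI collagen is a heterotrimer, with Col6a1, Col6a2 and Col6a3 as its common chains. Col6a3 had 7.43, 6.36, 6.60 and 6.25 in MYC non-tumour liver and 6.38, 6.20, 6.03 and 5.80 in the tumours. It was lower in the tumour of every MYC mouse, by 1.05, 0.16, 0.56 and 0.45, although the groups overlapped between mice. The mean change was -0.55 (SE 0.14, n = 4, limma adjusted p = 0.0145). Without MYC mouse 1, the mouse with the largest drop, it was -0.39 and did not pass (limma adjusted p = 0.0592). In MYC/REG3A mice the non-tumour values were 6.09, 5.92, 6.07 and 5.99 and the tumour values 6.13, 6.31, 6.13 and 6.29. All 4 tumours were above all 4 non-tumour samples, by 0.04 to 0.39 within mice, but the mean of 0.20 (SE 0.14) did not pass (limma adjusted p = 0.38).

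Col6a2 dropped by 0.95, 1.03 and 0.48 in MYC mice 1, 3 and 4 and was 0.41 higher in the tumour of mouse 2 (mean -0.51, SE 0.202, limma adjusted p = 0.0793). Col6a1 showed the same split, with -0.81, -0.63 and -0.37 against 0.51 in mouse 2 (mean -0.33, SE 0.189, limma adjusted p = 0.211). Without MYC mouse 2, Col6a1 was at -0.60 and Col6a2 at -0.82, and both passed (limma adjusted p = 0.011 and 0.00435). That fit leaves out the mouse that ran against the others, so it is a description only. Over the 18 alternative settings, Col6a1 ranged from -0.60 to -0.16 and Col6a2 from -0.82 to -0.34. The limma adjusted p reached 0.588 and 0.283. Col6a1 changed by -0.12 and Col6a2 by 0.05 in MYC/REG3A mice, neither called. Col6a6, a chain that can stand in for Col6a3, changed by -0.18 and -0.05 and was not called, though its groups did not overlap in MYC mice.

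Among the FACIT collagens, Col14a1, known as undulin, had 9.23, 8.61, 8.80 and 8.25 in MYC non-tumour liver and 8.27, 8.23, 8.0 and 7.29 in tumours. It was lower in the tumour of all 4 MYC mice, and the groups touched at 8.25 and 8.27. The mean change was -0.77 (SE 0.257, n = 4, limma adjusted p = 0.0434), or 1.71-fold lower. The call was lost without MYC mouse 1, 3 or 4 or MYC/REG3A mouse 1 (log2 change -0.71 to -0.77, limma adjusted p = 0.0579 to 0.135). It was also lost at -0.77 with no filter, with the mouse as a random block and with no block (limma adjusted p = 0.066, 0.0568 and 0.0757). The MYC/REG3A values were 8.40, 8.45, 8.42 and 8.0 in non-tumour liver and 7.85, 8.39, 6.63 and 8.02 in tumours, with changes of -0.55, -0.05, -1.78 and 0.02. The mean of -0.59 did not pass (limma adjusted p = 0.154). Without mice 2 and 4, whose tumours lay apart on the first principal component, it was -1.17 and passed (limma adjusted p = 0.0435); these are also the mice with the smallest Col14a1 changes, so this value is a description only.

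Col20a1, another FACIT collagen, had 5.81, 6.00, 6.27 and 6.08 in MYC non-tumour liver and 5.59, 5.78, 5.72 and 5.69 in tumours. Every tumour was below every non-tumour sample. The mean change was -0.35 (SE 0.116, n = 4, limma adjusted p = 0.0442), and it no longer passed when any 1 of the 4 MYC mice, or MYC/REG3A mouse 2 or 4, was omitted (log2 change -0.28 to -0.39, limma adjusted p = 0.0513 to 0.154). The MYC/REG3A values were 6.12, 5.87, 5.88 and 5.99 in non-tumour liver and 5.91, 5.94, 6.15 and 5.74 in tumours, a change of -0.03. Col16a1, Col9a1 and Col9a2 changed by between -0.16 and 0.11 and were called in neither genotype. Col9a3, a chain of the cartilage FACIT collagen IX, was above the array median in only 4 arrays. These were the non-tumour liver of MYC/REG3A mice 1, 3 and 4 and the tumour of MYC/REG3A mouse 4. Col9a3 was thus tested mainly through the group in which it was highest, so its tumour changes are a description only. Its values were 4.75, 4.56, 4.83 and 4.84 in MYC non-tumour liver and 4.51, 4.59, 4.75 and 4.59 in the tumours. The MYC/REG3A values were 5.01, 4.76, 5.04 and 5.21 in non-tumour liver and 4.62, 4.46, 4.87 and 4.95 in tumours. The groups overlapped in both genotypes, and the tumour was lower in all mice but MYC mouse 2. The mean changes were -0.14 in MYC mice and -0.28 in MYC/REG3A mice (limma adjusted p = 0.298 and 0.0813).

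The transmembrane collagen Col13a1, a component of cell adhesion sites, fell in MYC tumours. It had 5.91, 5.82, 5.91 and 5.87 in MYC non-tumour liver and 5.52, 5.43, 5.17 and 5.46 in tumours. Every tumour was below every non-tumour sample, and the non-tumour samples lay within a narrow band (SD 0.0403). The mean change was -0.49 (SE 0.116, n = 4, limma adjusted p = 0.0113), a 1.4-fold decrease that passed under each of the 18 alternative settings run. Col13a1 in MYC/REG3A mice had 6.02, 5.78, 5.70 and 6.05 in non-tumour liver and 5.47, 5.80, 5.30 and 5.74 in tumours. The changes were -0.56, 0.02, -0.40 and -0.31, with a mean of -0.31 that did not pass (SE 0.116, limma adjusted p = 0.104). The transmembrane collagens Col23a1 and Col25a1 and the remaining tested members Col7a1, an anchoring fibril collagen, and Col26a1 changed by between -0.15 and 0.00 and were called in neither genotype.

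**Figure D4:**
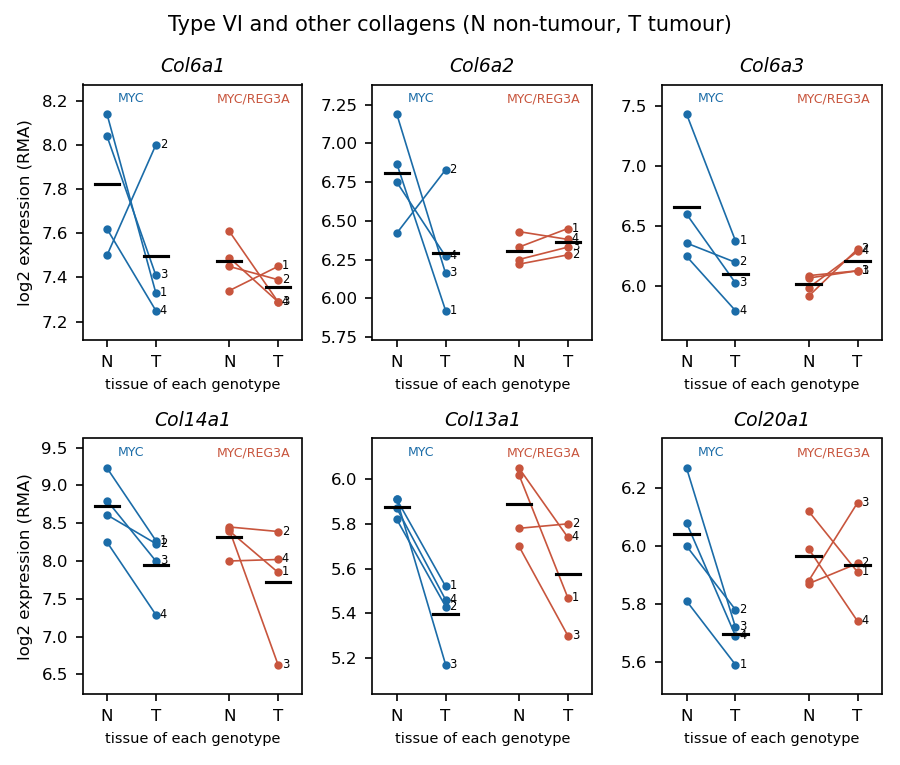
Log2 expression of the type VI collagens Col6a1, Col6a2 and Col6a3 and of Col14a1, Col13a1 and Col20a1 in non-tumour liver (N) and tumour (T), with a line for each mouse and black bars for group means of 4 mice. Col6a3 goes down along all 4 MYC lines and slightly up along all 4 MYC/REG3A lines, and MYC mouse 2 runs against the other MYC mice for Col6a1 and Col6a2.

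Averaging the change over both genotypes, a comparison added after the data had been seen and using the same 16 arrays, gave 8 called collagens, where 43.0% of all genes were called (21.5% higher, 21.4% lower). Col4a2 (0.70, SE 0.153, limma adjusted p = 0.00533) and Col4a1 (0.72, SE 0.17, limma adjusted p = 0.00744) were higher in tumours. Col13a1 (-0.40, SE 0.0822, limma adjusted p = 0.00393) and Col14a1 (-0.68, SE 0.181, limma adjusted p = 0.0136) were lower. These 4 calls held under each of the 18 alternative settings. Col8a1 (0.23, limma adjusted p = 0.0447) and Col1a1 (0.40, limma adjusted p = 0.0454) were also called higher, and Col27a1 (-0.36, limma adjusted p = 0.0249) and Col9a3 (-0.21, limma adjusted p = 0.0314) lower. The call was lost in 13 of 18 alternative settings for Col1a1, 12 of 18 for Col8a1, 6 of 18 for Col27a1 and 7 of 17 for Col9a3. For each gene these were fits without some of the mice and also at least 1 fit with all mice. In the settings that ended the call, the limma adjusted p reached 0.186 for Col1a1, 0.216 for Col8a1, 0.0691 for Col27a1 and 0.124 for Col9a3. Col9a3 was not tested under the filter of at least 8 arrays. It entered the tests mainly through MYC/REG3A non-tumour liver, the group in which it was highest, so its call here is a description only.

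**Figure D5:**
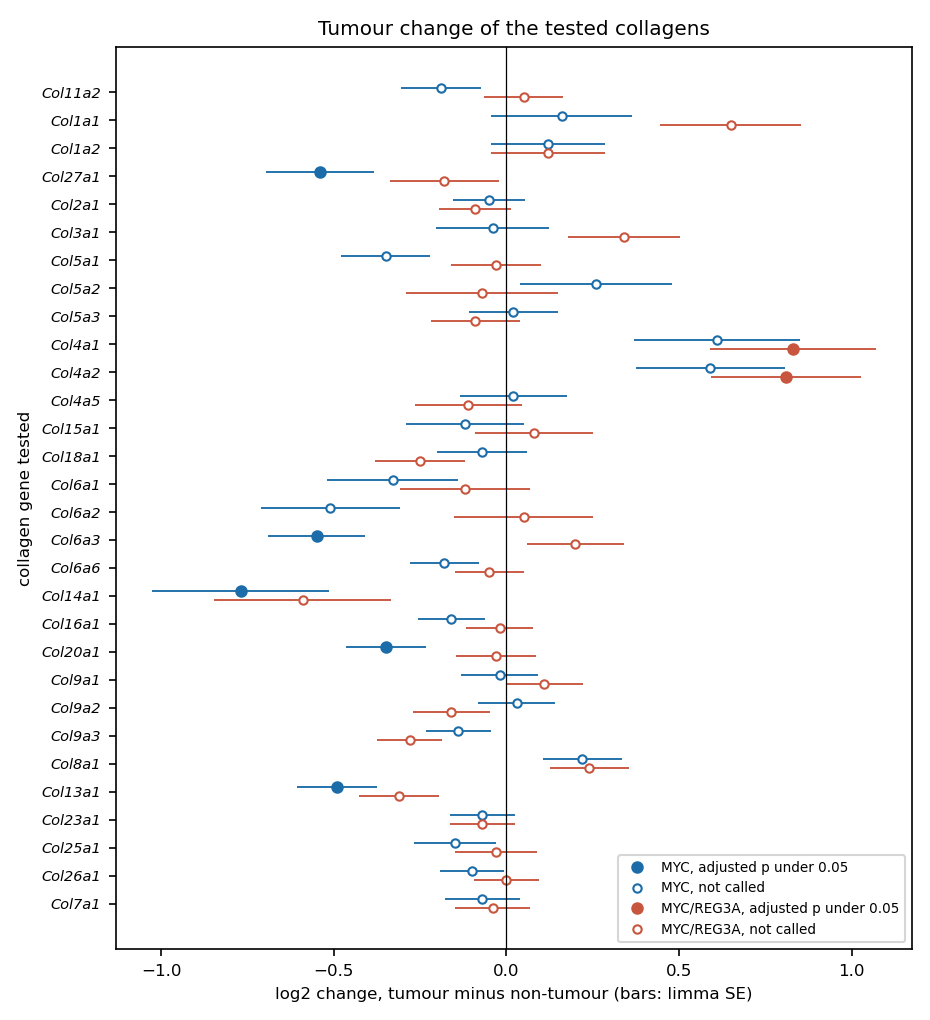
Estimated log2 change from non-tumour liver to tumour for the tested collagens in each genotype, with bars of 1 SE from limma on each side. Col4a1 and Col4a2 stand highest in MYC/REG3A mice at 0.83 and 0.81, and Col14a1 stands lowest in both genotypes at -0.77 and -0.59.

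The difference in tumour change between genotypes was called for 0 of the 30 collagens, against 0.00738% of all genes. At an unadjusted p under 0.05 there was 1 collagen, where 5.58% of all genes met that level in limma. It was Col6a3, with a difference of 0.75 (SE 0.198) at an unadjusted limma p of 0.00369 and an adjusted p of 0.873. The changes of Col1a1 differed by 0.49 and those of Col6a2 by 0.56 (SE 0.288 and 0.286), and neither met that level.

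Between genotypes within non-tumour liver, 0 collagens were called, and of all genes 0%. At an unadjusted p under 0.05 in limma there were 6 collagens, all lower in MYC/REG3A liver, where 5.45% of all genes met that level. They were Col6a3 (-0.64), Col1a1 (-0.64), Col4a2 (-0.51), Col6a2 (-0.50), Col1a2 (-0.42) and Col6a1 (-0.35), with limma adjusted p of 0.904 or 0.905. The MYC non-tumour group was spread more widely than the MYC/REG3A group for each of these genes, for example with an SD of 0.533 against 0.0791 for Col6a3 and 0.377 against 0.0511 for Col1a2. The non-tumour liver of MYC mouse 1 had the highest value of its group in 13 of the 30 tested collagens, among them Col1a1, Col6a1 and Col6a3, and that of MYC/REG3A mouse 1 in 19 of 30 within its own group. This comparison and the tumour comparisons share the non-tumour arrays, so a high non-tumour value enters each of them.

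Between genotypes within tumours, 0 collagens were called, against 0.0221% of all genes (0.00738% higher, 0.0148% lower). At an unadjusted p under 0.05 in limma there were 3 collagens, where 10.6% of all genes met that level. Col11a2 was 0.32 higher in MYC/REG3A tumours, Col20a1 was 0.24 higher and Col1a2 was 0.42 lower (a difference of -0.42), with limma adjusted p of 0.356, 0.469 and 0.435. The type IV pair differed by -0.19 for Col4a1 and -0.28 for Col4a2 (limma adjusted p = 0.782 and 0.634).

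Genes that make, process and break down collagen were counted from lists of their functions. Beside these counts stand the shares over all genes in the same comparison, which were 17.4% higher and 15.8% lower in MYC tumours and 7.58% higher and 4.88% lower in MYC/REG3A tumours. At an unadjusted p under 0.05, the share was 44.4% in MYC and 30.1% in MYC/REG3A tumours. In MYC tumours, 2 of 13 tested genes of folding and modification were higher. They were the prolyl 4-hydroxylase subunit P4ha2 (0.70, limma adjusted p = 0.00328) and the proline isomerase Ppib (0.55, 0.00882). The prolyl 3-hydroxylases P3h2 (-0.78) and P3h3 (-0.35) were lower, so the list was near the background in both directions. Serpinh1, the collagen chaperone HSP47, changed by -0.19 and was not called. Of 8 genes of procollagen processing and cross-linking, 3 were lower and 0 higher: the procollagen C-proteinase Bmp1 (-0.89, limma adjusted p = 0.0146), its enhancer Pcolce (-0.61) and the lysyl oxidase Loxl3 (-0.50). In MYC/REG3A tumours, 0 genes of either list were called in limma, with 2 of 13 and 1 of 8 at an unadjusted p under 0.05, both shares below the 30.1% of all genes.

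Of 11 tested genes of collagen breakdown, 2 were higher and 5 lower in MYC tumours. The collagenase Mmp13 (2.03, limma adjusted p = 0.00205) and the macrophage elastase Mmp12 (1.61, 0.0256) were higher. The membrane-bound collagenase Mmp14 (-1.34), the gelatinase Mmp9 (-0.68), Mmp19 (-0.55) and the inhibitors Timp2 (-0.82) and Reck (-0.97) were lower. In MYC/REG3A tumours 0 of the 11 were called in limma and 5 had an unadjusted p under 0.05, where 30.1% of all genes did; Mmp13 was at 0.97 (adjusted p = 0.0753). Of 7 collagen receptors, 4 were lower in MYC tumours: the integrins Itgb1 (-0.57) and Itga1 (-0.41), the discoidin receptor Ddr2 (-1.05) and the inhibitory receptor Lair1 (-0.80). In MYC/REG3A tumours 1 was lower, Itga1 (-0.45, limma adjusted p = 0.046).

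TGF-beta is the best known inducer of fibrillar collagen. Of 13 tested genes of its ligands, receptors and targets, 3 were lower and 0 higher in MYC tumours, where 15.8% of all genes were lower and 17.4% higher. They were Ltbp1, which holds the latent ligand in the matrix (-1.05), the co-receptor Tgfbr3 (-1.44) and the target Tgfbi (-1.52). Tgfbi (-1.11) and Tgfbr3 (-1.04) were also lower in MYC/REG3A tumours, where 4.88% of all genes were lower. The ligand Tgfb1 changed by -0.48 and -0.26 and the target Ccn2 by -0.26 and 0.00, and neither was called in either genotype.

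Marker genes of the cells that make collagen were lower in tumours for stellate cells. Over all genes tested, 15.8% were lower in MYC tumours and 4.88% in MYC/REG3A tumours. Of 12 stellate cell markers, 8 were lower in MYC tumours and 6 in MYC/REG3A tumours, with median log2 changes of -1.05 and -0.88. They included Reln (-2.10 and -1.41) and Lrat (-1.37 and -1.49), the enzyme that stores vitamin A. The mean level of the list lay between 8.38 and 8.86 in MYC non-tumour liver and between 7.27 and 7.82 in the tumours; in MYC/REG3A mice the ranges were 8.17 to 8.56 and 6.73 to 8.22. The lowest of these tumour values, 6.73, was that of MYC/REG3A mouse 3, the tumour with the lowest Col14a1 (6.63), and the highest, 8.22, was that of mouse 2. All 12 markers passed the filter on low values. Summed over the list on the linear scale, the log2 level was 12.79 to 13.29 and 11.56 to 12.36 in non-tumour liver and tumours of MYC mice, and 12.60 to 12.99 and 10.93 to 12.60 in MYC/REG3A mice.

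Of 12 markers of activated myofibroblasts and portal fibroblasts, 5 were lower in MYC tumours (Dpt -1.76, Lum -1.56, Pdgfra -1.42, Postn -0.73, Fbln1 -0.68). In limma, 0 of the 12 were called in MYC/REG3A tumours, and 2 had an unadjusted p under 0.05, a share below the 30.1% of all genes. The shares of all genes called lower were 15.8% in MYC and 4.88% in MYC/REG3A tumours. Acta2, which encodes smooth muscle actin, changed by 0.43 in both and was called in neither genotype. It was higher in the tumour of every mouse, by 0.01 to 0.90. With both genotypes averaged, 1 of the 12 markers was called higher and 5 lower, where 21.5% and 21.4% of all genes were. The mean level of this list was 7.11 in the non-tumour liver of MYC mouse 1, against 6.23 to 6.63 in the other 3 MYC mice and 6.08 to 6.24 in MYC/REG3A non-tumour liver. The summed log2 level was 10.18 to 11.15 and 9.81 to 10.49 in non-tumour liver and tumours of MYC mice, and 9.92 to 10.08 and 9.70 to 10.13 in MYC/REG3A mice. The non-tumour sample of MYC mouse 1 is the same that had the highest Col1a1, Col1a2, Col3a1 and Col6a3 of its group. The part of these markers in the collagen changes was not tested.

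Of 10 markers of sinusoidal endothelium, 9 were lower in MYC tumours and 7 in MYC/REG3A tumours (median -1.06 and -0.60), and their summed log2 level was 12.17 to 12.96 and 11.28 to 11.70 in non-tumour liver and tumours of MYC mice and 12.01 to 12.39 and 11.0 to 12.07 in MYC/REG3A mice. Other vascular markers ran in both directions. Of the 9 tested, 2 were higher and 3 lower in MYC tumours, and 2 were higher and 1 lower in MYC/REG3A tumours. Their median log2 changes were -0.14 and -0.01. Esm1, a gene of endothelial tip cells, was higher in both (2.46 and 1.26, limma adjusted p = 0.000503 and 0.0165), Angpt2 was higher in MYC tumours (1.07) and Emcn in MYC/REG3A tumours (1.18), while Plvap was lower in both (-1.12 and -0.90). The summed log2 level of the 9 tested vascular markers was 10.46 to 10.59 and 10.44 to 11.07 in MYC/REG3A non-tumour liver and tumours, and 10.56 to 11.24 and 10.46 to 11.44 in those of MYC mice. In MYC and MYC/REG3A tumours respectively, 2 and 0 of 4 bile duct markers were lower, 7 and 8 of 8 Kupffer cell markers, and 2 and 1 of 9 hepatocyte markers. Over all genes, 17.4% were higher and 15.8% lower in MYC tumours, and 7.58% and 4.88% in MYC/REG3A tumours. The 2 of 4 bile duct markers lower in MYC tumours are above the share of all genes but rest on only 4 genes tested. They and the few hepatocyte genes called are not read as results about those cells. The part of these cells in the rise of Col4a1 and Col4a2 was not tested.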

How the data were processed

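Biotin-labelled cDNA from 200 ng of Trizol-extracted RNA was hybridised to a 1-colour mouse Affymetrix array, per the labels' protocols. Per the submitters' processing notes, the authors ran RMA (Affymetrix Expression Console 1.4.1) to make the deposited log2 values; the run's settings and its log base are not given in the sources used here, and base 2 was taken from the span of the values. RMA subtracts background, equalises the arrays' distributions and summarises each transcript's probes, so changes are relative to the other genes. Precision is limited by the small number of arrays, and no detection calls were used.

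Of 41345 rows, 23521 had 1 gene symbol, 1814 several and 16010 none. Of several rows of a gene (3 collagens), that of highest mean over 16 arrays was kept. All 44 collagens matched RefSeq (GRCm38.p6) by Entrez ID. Genes above the array median in at least 4 arrays (13555) entered limma, version 3.58.1 under R 4.3.3 (lmFit, eBayes, 2-sided, Benjamini-Hochberg, threshold 0.05). Comparisons of tumour with non-tumour liver had the mouse as a fixed block, since both samples came from the same animal; the deviations of a mouse's 2 arrays correlated at 0.0963 to 0.325. Comparisons between genotypes used 4 group means. The scripts were tested on simulated data. SE is that of the fit. The spread of a gene is pooled over all 16 arrays, so SE and p do not measure the spread of 1 genotype alone. Levels are mean ± SD.

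Every collagen could be named, and every called collagen is given by array. Of other lists, up to 4 genes of lowest p were to be named; Mmp12, Mmp19, Postn, Serpinh1, Tgfb1 and Ccn2 fall outside that rule and were chosen after their values were seen. Members and lists were chosen with earlier results of these data known.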

Additional observations from a re-analysis of the deposited data

Results flagged for a closer look

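A gap test (Dixon) was run on 30 collagens in 4 groups, 120 groups of 4 arrays. Chance flags about 1 in 20 such groups. The test flagged 4 values, those of Col2a1 and Col8a1 on the same array. This is fewer than chance flags at that rate, so the 4 values are a description only. Col14a1 was at 8.0 in the non-tumour liver of MYC/REG3A mouse 4, below the next value of 8.40. Col2a1 was at 4.94 in the tumour of MYC mouse 1, with the nearest at 5.22. Col5a2 was at 5.51 in the non-tumour liver of MYC mouse 2, with the nearest at 5.88. Col8a1 was at 6.07 in the tumour of MYC mouse 1, with the nearest at 5.49.

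Col6a3 was lower in the tumour in 4 of 4 MYC mice and higher in 4 of 4 MYC/REG3A mice. The MYC/REG3A rises were 0.04, 0.39, 0.06 and 0.31. How many of all genes split by sign in this way was not counted. The difference in tumour change of 0.75 had an unadjusted limma p of 0.00369 and an adjusted p of 0.873, so it did not pass. The tumour means were alike, at 6.11 in MYC and 6.22 in MYC/REG3A mice. The non-tumour means were 6.66 and 6.02, with MYC mouse 1 at 7.43.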

How the results depend on the processing

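Each comparison was refitted under alternative filters, gene rows, array scalings, spread settings, array weights and pairings, and without each mouse in turn. No collagen changed sign among those called. In MYC mice, 5 collagens were called, and 8 with no replicate block or with the mouse as a random replicate block, both of which added Col4a1 and Col4a2 (higher), Col5a1 and Col6a2 (lower) and lost Col14a1; no filter also lost Col14a1, and leaving out a mouse gave 2 to 6. In MYC/REG3A mice, 2 were called, 0 with no filter, and 1, Col4a2, with the mean of rows, the 75th percentile scaling or trend and robust moderation; without mice 2 and 4 together the 1 called was Col14a1 (lower), and Col4a1 and Col4a2 were both lost; leaving out a mouse gave 0 to 3. For the mean of both genotypes, chosen after seeing the data, 8 were called, 5 with no replicate block or without MYC/REG3A mice 2 and 4 together, and 4 to 8 without a mouse. The interaction and both genotype comparisons called 0 collagens under every alternative. In MYC mice, genes called higher and lower numbered 2357 and 2148, and 2040 and 2624 with the 75th percentile scaling. The causes were not tested. With 4 mice per genotype, calls close to the threshold turn on single animals, and no detection calls show which low members are above background.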
